A study of Camelina sativa with 12 samples.

Results

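Roots of the *rolD::acdS* line were compared with roots of the DH55 control, both grown under salt, across the genes of *Camelina sativa* that were expressed in the experiment. A gene was kept when it reached 1 CPM (counts scaled to a common library size) in at least 3 of the 12 libraries, which held for 48099 of 49932 genes. The comparison rests on 3 *rolD::acdS* libraries and 3 control libraries, each a biological replicate. The *rolD::acdS* plants are DH55 carrying the *acdS* gene of *Pseudomonas* sp. UW4 behind the root promoter *rolD* of *Agrobacterium rhizogenes*, and they stand for 1 transgenic line, so that effects of *acdS* and of that line cannot be told apart. The control is DH55 without the transgene. The other 6 libraries entered the same fit and are from the *35S::acdS* line, in which a double CaMV *35S* promoter drives *acdS* throughout the plant, and from DH55 grown in soil inoculated with the bacterium *P. migulae* 8R6. The study gave soil either bacteria or, as the control, the MgSO4 solution in which they were suspended. It does not state this separately for the transgenic lines. Every group was watered with 192 mM NaCl (15 dS/m) for 21 days and harvested at 28 days, so no value here compares salt with no salt. The level of the *acdS* transcript was not analysed here.

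The *acdS* gene encodes ACC deaminase, a bacterial enzyme that breaks down ACC, the direct precursor of the plant hormone ethylene. Ethylene acts through EIN3-type transcription factors and, together with jasmonate, on AP2/ERF factors that control defence genes. Jasmonate signalling is held down by JAZ proteins, which are degraded when the hormone is perceived and whose own genes are among the first to be switched on. A separate set of root genes, for fermentation and for oxygen sensing, is switched on when oxygen runs short, and another set, the *DIN* genes, when sugar runs short. Camelina is a hexaploid, so most genes of *Arabidopsis thaliana* have several near copies (homeologs) whose reads can be hard to separate, and the level of a single copy is uncertain to that degree. Gene roles below are those known in *A. thaliana*, given as background.

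The libraries differed from each other in ways that the groups do not follow. Among 32862 genes with a mean of at least 5 CPM, *rolD::acdS* replicates 2 and 3 differed by more than 2-fold in 104 genes. Replicate 1 of the same line differed from them in 668 and 1084 genes, but from control replicate 1 in only 292. The 3 control libraries differed from each other in 652 to 760 genes. These counts include the chromosome 4 run described below, in which control replicates 2 and 3 were low, and its share in them was not counted. The summed values of the 6 libraries ran from 891862 to 938888 CPM. Read totals are unknown, since CPM do not carry them. The 3 copies of *SKOR*, a potassium channel of the root stele, summed to 17, 20 and 19 CPM in the control and to 28, 8 and 5 CPM in *rolD::acdS* roots, where replicate 1 again stood apart and none of the copies was at 0. Light-harvesting genes, which mark shoot tissue, summed to 4, 4 and 4 CPM in the control and to 3, 5 and 5 CPM in *rolD::acdS* roots over 3 genes, none of them at 0. A further light-induced gene, *ELIP1* (Csa01g026130), which the study picked for this line, had 1, 1 and 2 CPM in *rolD::acdS* roots, while the control libraries are all listed at 0 for it. In bulk RNA, fewer cells of a type and less RNA per cell cannot be told apart.

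Much of the upper end of the comparison came from 1 run of neighbouring genes on chromosome 4. It spans 286 genes in the order of their identifiers, from Csa04g058080 to Csa04g065820, of which 276 were tested, and it was found by scanning the libraries after their values were seen. Summed over these genes, the *rolD::acdS* libraries held 6088, 5868 and 5742 CPM and the *35S::acdS* libraries 5805, 5873 and 6132 CPM. The control libraries held 5946, 699 and 3582 CPM. Roots treated with *P. migulae* 8R6 held 3611, 786 and 3743 CPM. Control replicate 1 thus stood level with the transgenic roots, control replicate 3 far below them, and control replicate 2 close to nothing.

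The drop was shared by the genes of the run rather than carried by a few of them. For the 215 genes with a mean of at least 5 CPM in the *acdS* libraries, the median gene stood at 100%, 7.69% and 52.9% of that mean in control replicates 1, 2 and 3. In *P. migulae* 8R6-treated replicates 1, 2 and 3 it stood at 56.3%, 8.65% and 53.4%. Control replicate 2 had 75 of these 215 genes at 0 and *P. migulae* 8R6-treated replicate 2 had 64, and in the other 10 libraries none was at 0. The 96 genes beyond the run, to the last identifier of the chromosome, showed the same order with a smaller drop, at medians of 100%, 56.5% and 78.2% in the control replicates. In the other 2028 genes of chromosome 4 the medians of the 12 libraries lay between 98.4% and 101%. Medians over windows of 50 genes ranged from -0.27 to 0.22 on the log2 scale in the rest of the genome and down to -3.93 inside the run. What lies behind the drop was not tested.

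**Figure D1:**
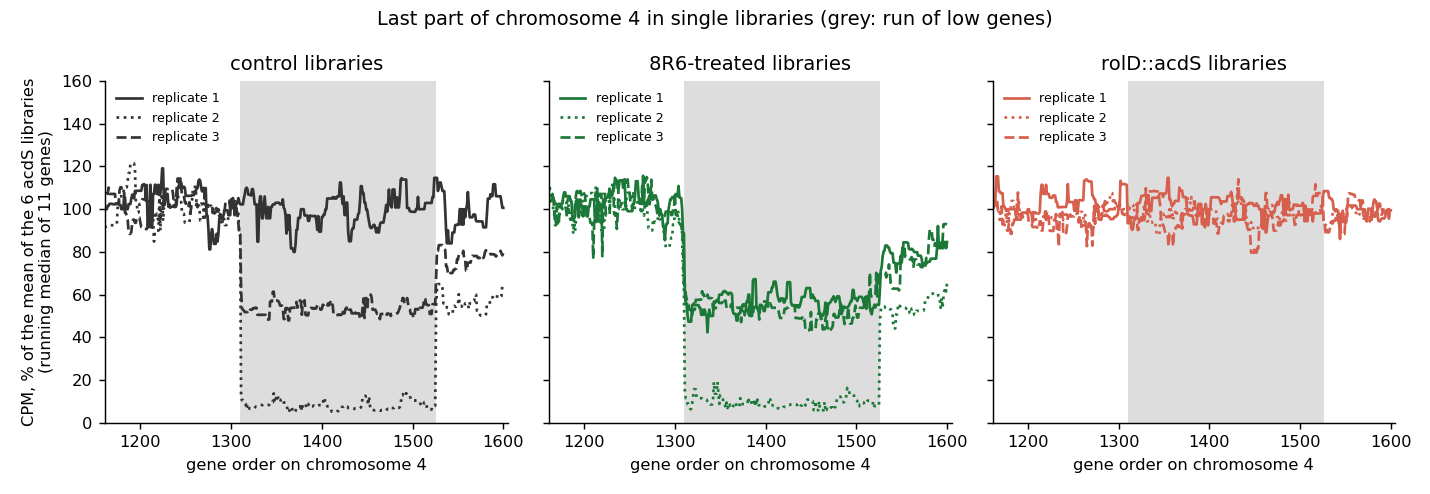
Level of each library along the last part of chromosome 4, as the running median over 11 genes of its CPM in percent of the mean of the 6 *acdS* libraries, for genes with at least 5 CPM in that mean, in the order of their identifiers. The control, the *P. migulae* 8R6-treated and the *rolD::acdS* roots have a panel each with 1 line per replicate, and the grey band marks the run, over which the median gene stands at 7.69% in control replicate 2, at 52.9% in control replicate 3 and at 100% in control replicate 1.

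In the comparison of group means, the run appears as a block of genes higher in *rolD::acdS* roots, though none of its genes was called and 28 had an unadjusted p under 0.05. The log2 fold change (*rolD::acdS* minus control) had a median of 1.45 over its 276 tested genes and was above 0 in 274 of them, whereas the median was 0 over all genes tested. Against the control replicates one at a time, the median difference of the *rolD::acdS* mean was -0.05 for replicate 1, 3.38 for replicate 2 and 0.89 for replicate 3. Against *35S::acdS* roots it was -0.01, and against *P. migulae* 8R6-treated roots 1.66. The unannotated gene Csa04g061190 had the largest positive value among genes of at least 5 CPM whose libraries did not overlap, a log2 fold change of 3.24 ± 1.25 (SE). Its control libraries held 24, 0 and 6 CPM and its *rolD::acdS* libraries 34, 30 and 63 CPM, and without control replicate 2 the value was 1.69. For Csa04g060710, with 97, 8 and 89 CPM against 142, 306 and 261 CPM, it was 2.42, and 1.27 without control replicate 2. Csa04g065150 (*KPHMT1*, an enzyme of pantothenate synthesis) and Csa04g062700 (*ERF13*, an ethylene response factor) have identifiers inside the run and were not analysed here.

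Over all genes, few differences stood out from the spread of the libraries. With limma on log2(CPM + 0.5) and Benjamini-Hochberg adjustment over the 48099 genes, 2 genes passed an adjusted p of 0.05 with an absolute log2 fold change above 0.8, 0.00416% of those tested. Both, Csa11g007100 and Csa20g039340, fell: each was listed at 1 CPM in all 9 other libraries and at 0 in the 3 *rolD::acdS* libraries (adjusted p = 0.0345), and the step from 1 to 0 is the smallest the whole-number values can show. At an unadjusted p under 0.05, 1496 genes (3.11%) were higher and 1803 (3.75%) lower. The 3 libraries of one group lay wholly above or below those of the other in 1436 genes that were higher (2.99%) and 1814 that were lower (3.77%). Of these, 182 higher (0.378%) and 80 lower (0.166%) also had an absolute log2 fold change above 0.8. The run on chromosome 4 held 41 of the 182, that is 22.5% of them against 0.574% of the genes tested, and none of the 80. For a single gene, the smallest p that an exact permutation test allows with 3 libraries in each group is 0.1.

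The genes that met both conditions depended on *rolD::acdS* replicate 1 in number and in balance. Without it, 566 genes were higher and 627 lower, 1193 in all against 262 with every library, though fewer values then have to stand apart. Without control replicate 1 the total was 830, without control replicate 3 it was 493, and without *rolD::acdS* replicate 2 it was 481. With *rolD::acdS* replicate 1 left out, limma called 7 genes, the same 2 among them, and 6069 genes instead of 3299 had an unadjusted p under 0.05. With *rolD::acdS* replicate 3 left out, it called 5 genes and 1596 had an unadjusted p under 0.05. With any control library or *rolD::acdS* replicate 2 left out it called 0, with 2362 to 3287 genes at an unadjusted p under 0.05.

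**Figure D2:**
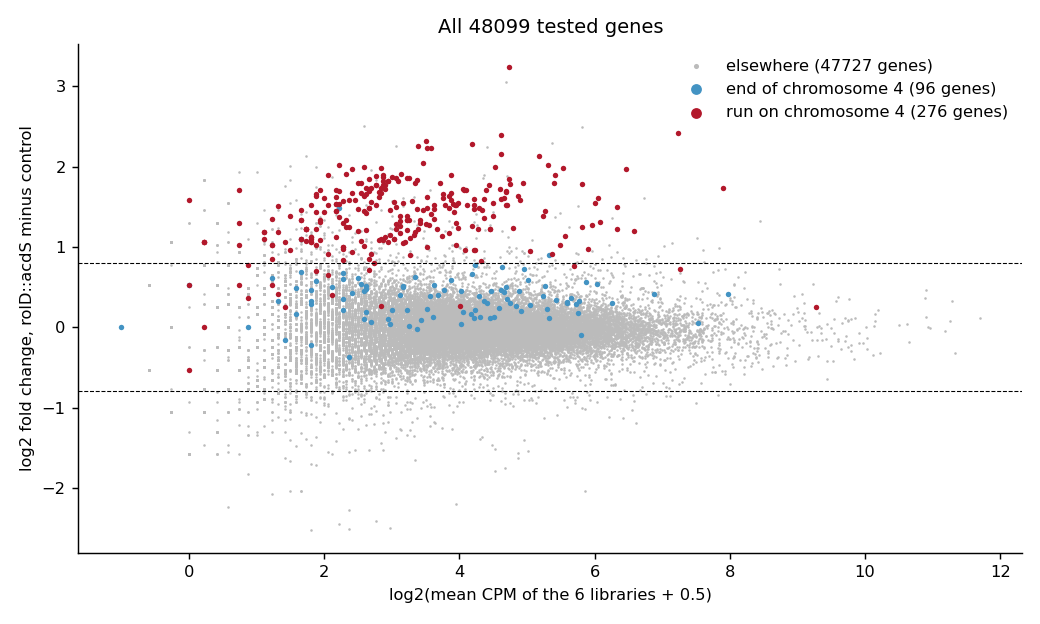
Log2 fold change of *rolD::acdS* against control roots, plotted against the log2 of the mean CPM of the 6 libraries plus 0.5, for the 48099 genes tested, with dashed lines at 0.8 and -0.8. Points in red are the 276 tested genes of the chromosome 4 run, with a median of 1.45, points in blue the 96 genes beyond it, and points in grey all others, centred on 0.

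Outside the run, the largest positive differences without overlap were those of an ERF factor, a stress gene and sulfotransferase 2A. Csa03g046520 (*RAP2.6*, an ERF transcription factor induced by jasmonate, salt and wounding) had 12, 2 and 4 CPM in the control and 56, 27 and 51 CPM in *rolD::acdS* roots. Every *rolD::acdS* library was above every control library, and its log2 fold change was 3.05 ± 0.61 (SE, adjusted p = 0.694 with limma). Csa17g069360, another copy of *RAP2.6*, had 1, 0 and 1 CPM against 4, 1 and 6 CPM, which touch at 1 CPM (1.76, adjusted p = 0.713 with limma). Csa18g035240, annotated as stress up-regulated Nod 19-like, had 1, 1 and 2 CPM against 8, 11 and 10 CPM, a difference of 2.50 ± 0.39 on the log2 scale (adjusted p = 0.442). Its rise was not particular to this line, since the *35S::acdS* libraries held 24, 16 and 7 CPM. The log2 fold change was 3.02 for *35S::acdS* minus control and -0.52 for *rolD::acdS* minus *35S::acdS*. On the lower side, Csa03g018910, annotated as a methyltransferase, had 2, 5 and 8 CPM in the control and 1 CPM in each *rolD::acdS* library (-1.70 ± 0.44, adjusted p = 0.694). None of these genes passed the adjusted threshold, and the study had chosen each of them for this line.

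Gene groups were followed in 21 lists by function with 168 tested genes. None of the 168 was called, and the smallest adjusted p was 0.231. Of the 168, 88 had been picked by the study for *rolD::acdS* on these same libraries, so their direction is not independent evidence. The other 80 had all been picked by the study for *35S::acdS* roots (65 genes) or *P. migulae* 8R6 (16 genes, 1 of them in both) against the same control libraries, so they are not free of selection either. Among these 80, 37 had a positive and 37 a negative log2 fold change, and the median was 0, as it was over all genes tested. For 3 higher and 6 lower of them the libraries did not overlap, where 2.99% and 3.77% of all genes tested did so. At an unadjusted p under 0.05, 8 were higher and 10 lower, beside 3.11% and 3.75% of all genes tested. Counts by list below stand against these same shares over all genes, and genes called picked for another treatment are from the 80.

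Most jasmonate genes of the lists had higher values in *rolD::acdS* roots, and all but 1 had been chosen by the study for this line, so their direction was fixed by that choice. The 5 *JAZ* genes tested, which encode the repressors *JAZ7*, *JAZ9* and *JAZ10*, had log2 fold changes between 1.00 and 1.31 with a median of 1.22, all with an unadjusted p under 0.05 and none passing after adjustment. For 4 of them the libraries did not overlap, beside 2.99% of all genes tested on the higher side. Csa08g005100 (*JAZ10*) had 20, 14 and 16 CPM in the control and 37, 21 and 48 CPM in *rolD::acdS* roots (1.00 ± 0.29, adjusted p = 0.694). Csa20g018590, another copy of *JAZ10*, had 4, 2 and 4 CPM against 10, 5 and 13 CPM (1.31). In both copies *rolD::acdS* replicate 2 was the lowest of its group and control replicate 2 the lowest of the control.

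The 8 jasmonate and oxylipin enzymes had a median log2 fold change of 1.42, beside 0 over all genes tested. Sulfotransferase 2A, which sulfates hydroxyjasmonate, showed the widest gaps. Its copy Csa20g009360 had 29, 4 and 22 CPM in the control and 162, 45 and 72 CPM in *rolD::acdS* roots (2.50 ± 0.89, adjusted p = 0.710), with 1.66 when control replicate 2 was left out. The copy Csa13g009030 had 19, 5 and 16 CPM against 119, 29 and 58 CPM (2.29), and sulfotransferase 2B (Csa08g057450) had 15, 4 and 13 CPM against 70, 23 and 28 CPM (1.88). Replicate 1 was the highest *rolD::acdS* library and control replicate 2 the lowest control in all of these sulfotransferase genes.

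Allene oxide synthase and hydroperoxide lyase 1 had smaller gaps than the sulfotransferases. Csa20g066350 (the synthase, which commits fatty acid hydroperoxides to jasmonate) had 35, 29 and 35 CPM in the control and 55, 44 and 76 CPM in *rolD::acdS* roots (0.78 ± 0.21, adjusted p = 0.694). Csa11g035060 (the lyase, which competes with it for the same substrates) had 3, 3 and 3 CPM against 5, 6 and 7 CPM (0.88). A jasmonate-responsive lectin, Csa01g019170, was the most abundant of the list, with 151, 127 and 111 CPM against 252, 196 and 323 CPM (0.97). The 1 enzyme that the study had picked for *35S::acdS* and not for this line, a 12-oxophytodienoate reductase (Csa16g040840), had 9, 11 and 20 CPM against 28, 8 and 10 CPM, groups that overlap (0.06).

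**Figure D3:**
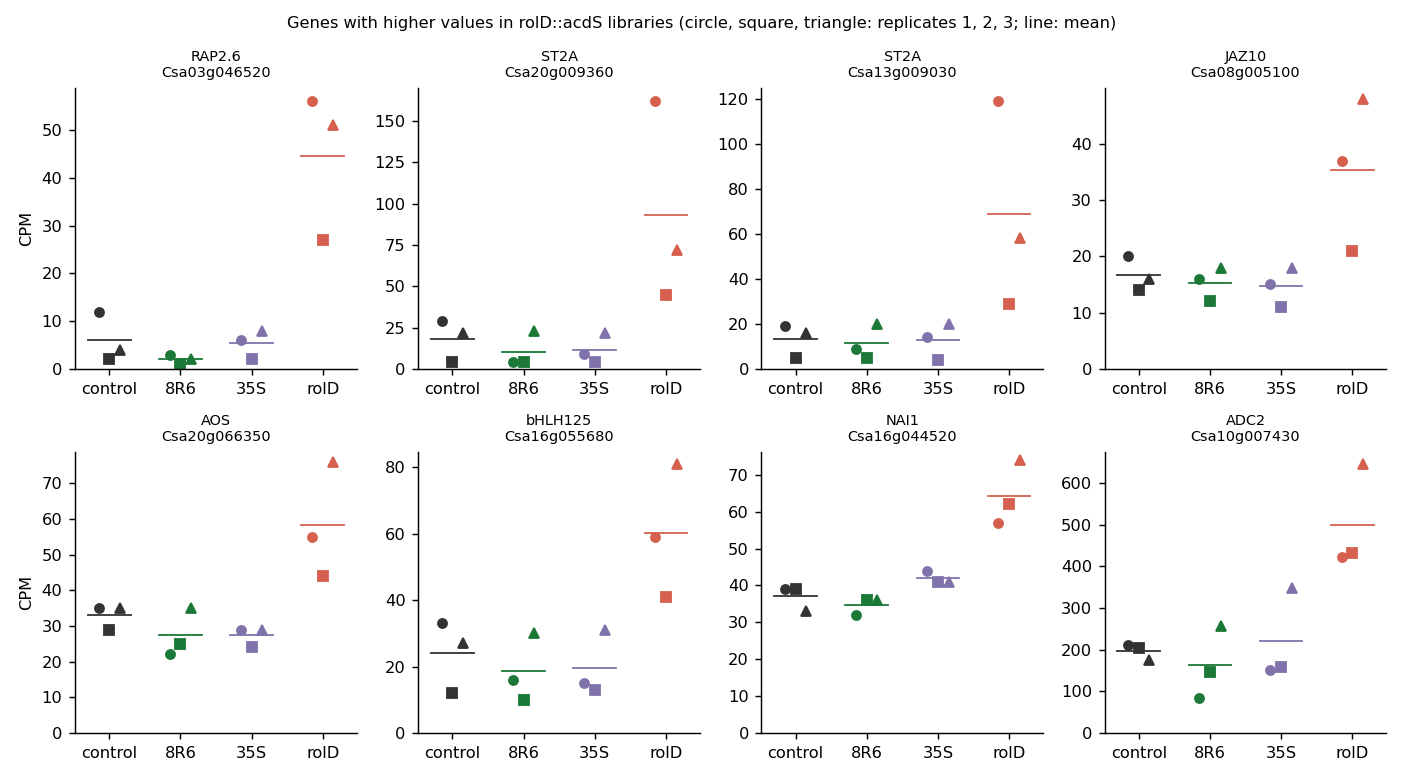
CPM (linear axis from 0) of 8 genes with higher values in *rolD::acdS* roots, jasmonate-related genes, bHLH factors and arginine decarboxylase 2, in the 12 libraries, with 1 symbol per replicate and a line at each group's mean. Control and *rolD::acdS* libraries lie apart in each panel, for example in *RAP2.6* (2 to 12 against 27 to 56 CPM) and allene oxide synthase (29 to 35 against 44 to 76 CPM).

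Transcription factors of the bHLH family had a median log2 fold change of 1.12, and 8 of the 10 genes were higher without overlap, beside 2.99% of all genes tested. The study had chosen 9 of the 10 for this line. Csa16g044520 (*NAI1*, which controls the ER bodies of roots and seedlings) had 39, 39 and 33 CPM in the control, a mean of 37.0 ± 3.46 (SD, n = 3). In *rolD::acdS* roots it had 57, 62 and 74 CPM, a mean of 64.3 ± 8.74, with a log2 fold change of 0.79 ± 0.11 and an adjusted p of 0.231 with limma. The 3 copies of *bHLH125*, a factor of little-known function, had log2 fold changes of 1.28, 1.38 and 1.85. The highest of these, Csa07g064290, had 12, 4 and 10 CPM against 33, 20 and 40 CPM.

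Among MYB factors, Csa08g056690 (*MYB29*, an activator of aliphatic glucosinolate synthesis) had 11, 13 and 8 CPM in the control and 19, 27 and 34 CPM in *rolD::acdS* roots (1.27 ± 0.36). Csa11g025000 (*MYB102*, induced by osmotic stress and wounding) was listed at 0 in all control libraries and at 1, 1 and 2 CPM in *rolD::acdS* roots (adjusted p = 0.231), at the edge of what whole numbers resolve. Csa04g066350 (*MYB2*, a factor of the abscisic acid response) had 3, 1 and 2 CPM against 4, 7 and 8 CPM (1.48, and 1.16 without control replicate 2) and lies among the 96 genes at the end of chromosome 4. Csa06g012860 (*MYB121*), picked for another treatment, had 43, 20 and 14 CPM against 18, 35 and 33 CPM, which overlap. The AP2/ERF list divided in the same way. The 5 members that the study had chosen for this line, copies of *RAP2.6*, *TOE3* and AT1G75490, had log2 fold changes from 0.73 to 3.05, whereas *ERF105*, *ERF106* and *ERF6* copies had values from -0.21 to 0.27.

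Genes of glucosinolate and camalexin synthesis had a median of 1.15, and all 8 had a positive value, 3 of them chosen by the study for this line. Csa09g011480 (*PAD3*, the last step to camalexin), among these 3, had 4, 3 and 4 CPM in the control and 10, 6 and 9 CPM in *rolD::acdS* roots (1.06 ± 0.29, adjusted p = 0.694). A methylthioalkylmalate synthase (Csa08g017380), which lengthens the side chain of aliphatic glucosinolates and was picked for another treatment, had 2, 8 and 8 CPM against 8, 16 and 30 CPM (1.52, and 0.93 without control replicate 1). Its groups touch at 8 CPM. Anthranilate synthase 1 (Csa20g007990), at the start of tryptophan-derived defence compounds and also picked for another treatment, had 6, 6 and 8 CPM against 11, 9 and 9 CPM (0.51).

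Genes of the low-oxygen response had lower values in *rolD::acdS* roots throughout, with a median of -1.38 over 8 genes, all chosen by the study for this line, which fixed their direction. The libraries did not overlap for 6 of them, and 7 had an unadjusted p under 0.05, beside 3.77% and 3.75% of all genes tested on the lower side. Csa12g011790 (pyruvate decarboxylase 1, the first step of ethanol fermentation) had 15, 22 and 70 CPM in the control and 9, 9 and 11 CPM in *rolD::acdS* roots (-1.52 ± 0.73, adjusted p = 0.729), and the value was -0.88 without control replicate 3. Csa11g088050 (pyruvate decarboxylase 2) had 13, 19 and 30 CPM against 9, 10 and 10 CPM (-0.98). Of the 6 libraries compared, control replicate 3 was the highest for both genes, and the *rolD::acdS* libraries stayed within 2 CPM of each other. *P. migulae* 8R6-treated replicate 2 was higher still in both, at 77 and 34 CPM.

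The regulators of that response showed the same order of the control libraries, with *rolD::acdS* replicate 1 as the highest of its group. Csa15g002200, a copy of the transcription factor *LBD41*, had 24, 33 and 80 CPM in the control and 22, 12 and 12 CPM in *rolD::acdS* roots (-1.41 ± 0.50), so that *rolD::acdS* replicate 1 came within 2 CPM of control replicate 1. The copies Csa01g002130 and Csa19g004650 had log2 fold changes of -1.47 and -1.13. Without control replicate 3, Csa15g002200 was at -0.91 and Csa01g002130 at -0.96. Plant cysteine oxidase 1 (Csa20g021600), the oxygen sensor that marks ERF-VII factors for breakdown, had 6, 9 and 16 CPM against 5, 3 and 4 CPM (-1.19). The median of the list was -0.90 without control replicate 3 and -1.74 without control replicate 1, all below 0. In the 2 other treatments against the same control libraries, the median was -0.59 for *35S::acdS* and 0.43 for the bacterium.

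**Figure D4:**
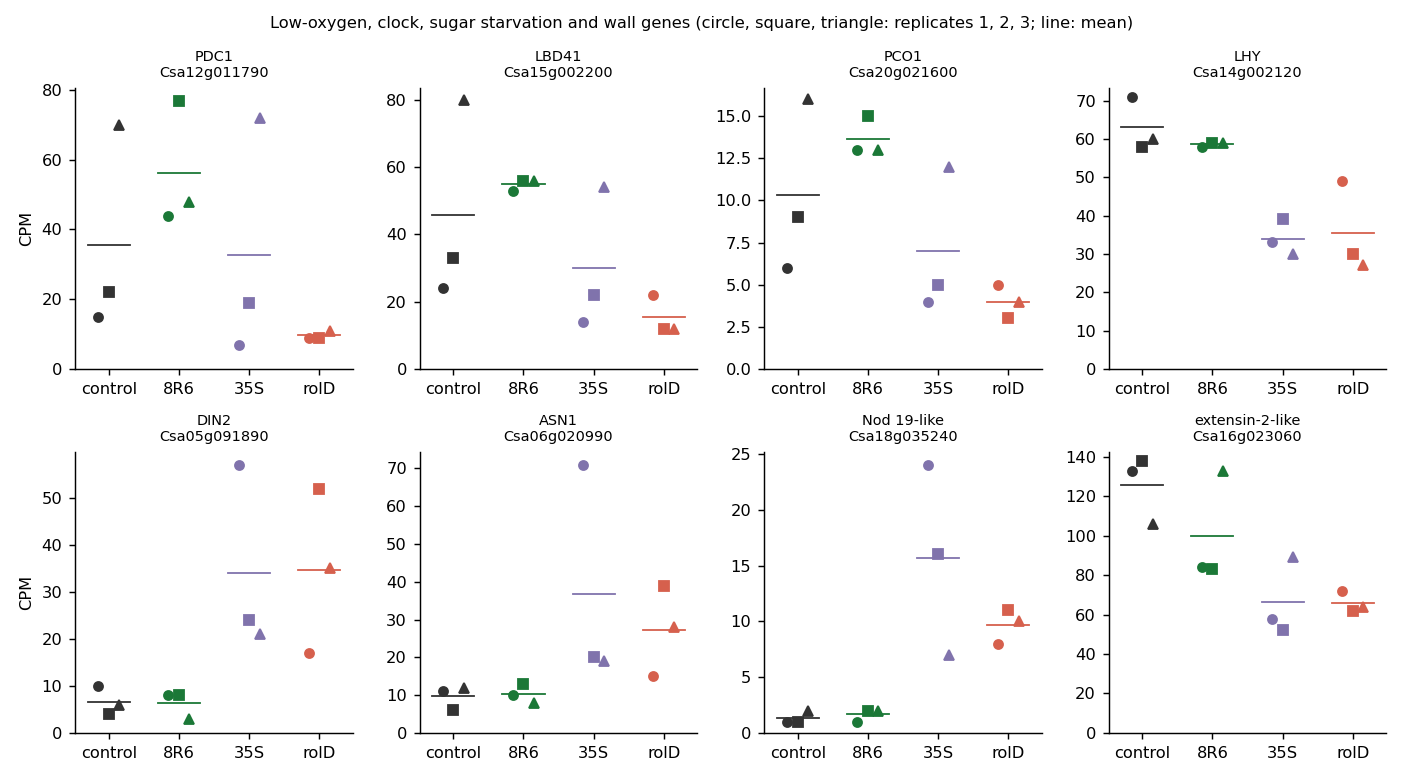
CPM (linear axis from 0) of low-oxygen, clock, sugar-starvation, Nod 19-like and extensin genes in the 12 libraries, with 1 symbol per replicate and a line at each group's mean. Control replicate 3 is the highest control of each low-oxygen gene (70 CPM for pyruvate decarboxylase 1), and for the *DIN2* copy Csa05g091890 the *rolD::acdS* libraries lie at 17 to 52 CPM against 4 to 10 CPM.

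Genes that answer to sugar starvation had a median of 1.40 over 10 genes, 5 of them chosen by the study for this line, and a positive value in all 10. The *DIN2* gene encodes a beta-glucosidase, and its copy Csa05g091890 had 10, 4 and 6 CPM in the control and 17, 52 and 35 CPM in *rolD::acdS* roots (2.24 ± 0.53, adjusted p = 0.694). The copy Csa16g005800 had 11, 5 and 9 CPM against 22, 44 and 30 CPM (1.89). Other *DIN2* copies were lower in level and overlapped between the groups. Csa07g004940 had 2, 1 and 1 CPM against 2, 11 and 10 CPM (1.92). Csa09g092510, picked for another treatment, had 2, 2 and 0 CPM against 3, 1 and 5 CPM (1.07). Csa06g020990 (*ASN1*, asparagine synthetase) had 11, 6 and 12 CPM against 15, 39 and 28 CPM (1.41 ± 0.50). For Csa05g091890, Csa16g005800 and Csa06g020990 *rolD::acdS* replicate 1 was the lowest of its group, the reverse of the sulfotransferases, but this did not hold over the list. Replicate 1 was the highest in other members, for example the *ASN1* copy Csa04g030180 (14, 8 and 11 CPM) and *DIN10* (Csa13g023210, 19, 12 and 12 CPM). The 5 members picked for another treatment had a median of 1.02, and 2 of them an unadjusted p under 0.05. One was *DIN11* (Csa06g023620), with 5, 3 and 19 CPM against 31, 30 and 13 CPM, which overlap.

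Sucrose-splitting and sugar-transport genes did not move together. The 3 copies of a vacuolar invertase, which splits sucrose in the vacuole, had log2 fold changes of 0.92, 1.33 and 1.51. The last of them, Csa03g015980, had 37, 20 and 26 CPM in the control and 78, 60 and 99 CPM in *rolD::acdS* roots (adjusted p = 0.694). *SWEET16* (Csa19g023540), a sugar carrier of the vacuole, had 6, 7 and 7 CPM against 13, 9 and 17 CPM (0.87). The study had picked these and a beta-amylase for this line. The 8 members picked for another treatment, among them *SUC1*, *SWEET* and sucrose synthase copies, had a median of -0.18, and none had an unadjusted p under 0.05. The *SUC1* copy Csa07g038820 had 65, 63 and 57 CPM against 114, 33 and 49 CPM, with *rolD::acdS* replicate 1 on one side of the control and replicates 2 and 3 on the other.

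Arginine decarboxylase 2, which opens the route from arginine to putrescine and other polyamines, had higher values in all 3 copies, each chosen by the study for this line. Csa10g007430 had 211, 203 and 176 CPM in the control and 422, 432 and 646 CPM in *rolD::acdS* roots, means of 197 ± 18.3 and 500 ± 127 (SD, n = 3). Its log2 fold change was 1.32 ± 0.40 (adjusted p = 0.694). The other copies had 1.05 (Csa12g008880) and 0.94 (Csa11g007220), and no library of either group crossed into the other. Of the inositol genes, *MIPS2* (Csa07g052330), for the first step of inositol synthesis, had 16, 11 and 16 CPM against 46, 28 and 28 CPM (1.20). Its copy Csa09g086550 had 8, 8 and 8 CPM against 13, 14 and 13 CPM (0.70), and the study had chosen both for this line. *MIPS3* (Csa20g015440), for the same step and picked for another treatment, had 1, 2 and 3 CPM against 2, 2 and 2 CPM (0.08). Galactinol synthase (Csa07g061680), which uses that inositol, had 42, 44 and 25 CPM against 31, 36 and 26 CPM (-0.22).

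Defence proteins went both ways, with 13 of 23 genes above 0 and 10 below and a median of 0.33, which was 0.56 without control replicate 1, -0.14 without control replicate 3 and 0.03 without *rolD::acdS* replicate 1. The study had chosen 8 of the 23 for this line. The other 15 had a median of -0.05, and for none of them were the libraries apart. Members named below without overlap are thus among the 8, and that choice favoured their direction. Higher ones included a thionin (Csa14g054980), with 9, 9 and 7 CPM in the control and 15, 15 and 14 CPM in *rolD::acdS* roots (0.79 ± 0.19), and a gene of the major latex protein family (Csa16g032520), with 8, 3 and 6 CPM against 9, 17 and 16 CPM (1.28). *DIR1* (Csa11g074620), a lipid-transfer protein of systemic resistance, had 13, 14 and 21 CPM against 9, 7 and 7 CPM (-0.99). The salicylate marker *PR1* (Csa12g010010) had 50, 102 and 191 CPM against 110, 36 and 23 CPM (-1.13), and the 2 groups overlap through *rolD::acdS* replicate 1. Leaving out control replicate 3 gave -0.66, *rolD::acdS* replicate 3 gave -0.65 and *rolD::acdS* replicate 1 gave -1.77. The large negative value of *pEARLI1* (Csa13g050880), -2.50, rested on control replicate 3, which had 38 CPM beside 1 and 3 CPM in the other controls, and was -1.14 without it.

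In the cell wall list, 5 genes were higher and 2 lower without overlap among 13, beside 2.99% and 3.77% of all genes tested, and 7 of the 13 were chosen by the study for this line. A mannan endohydrolase (Csa14g002340) had 5, 3 and 4 CPM in the control and 13 CPM in each *rolD::acdS* library (1.61 ± 0.27, adjusted p = 0.504). The polygalacturonase inhibitor *PGIP2* had 30, 12 and 32 CPM against 84, 40 and 69 CPM in Csa13g008910 (1.42) and 3, 1 and 3 CPM against 16, 6 and 18 CPM in Csa20g009230 (2.25). An extensin-2-like gene (Csa16g023060), for a structural wall protein, had 133, 138 and 106 CPM against 72, 62 and 64 CPM (-0.92 ± 0.22, adjusted p = 0.694). Peroxidases were mostly lower, 6 of 8 with a median of -0.63, for example Csa06g041190 with 41, 50 and 47 CPM against 37, 34 and 25 CPM (-0.53). An exception among those picked for another treatment, Csa06g023070, had 46, 32 and 46 CPM against 72, 55 and 65 CPM (0.64).

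Genes for ion transport, all picked for another treatment, had a median of -0.40 over 8 genes, and for none of them were the libraries apart. The median was -0.70 without *rolD::acdS* replicate 1, -0.22 without replicate 2 and -0.25 without replicate 3. *HKT1*, which takes sodium out of the xylem of the root, had 104, 115 and 72 CPM in the control and 84, 55 and 41 CPM in *rolD::acdS* roots in Csa08g040240 (-0.72 ± 0.30, adjusted p = 0.713). Its other copy, Csa02g026480, had 70, 72 and 45 CPM against 75, 46 and 40 CPM (-0.24). *KAT1* (Csa11g065760), a potassium channel best known from guard cells, had 1, 1 and 1 CPM against 1, 6 and 6 CPM (1.41), level with the control in *rolD::acdS* replicate 1, and was called without that library. Of the 7 nitrate, peptide and ABC transporters tested, the study had chosen 3 for this line, and only these were without overlap. Among them, Csa07g039180 had 6, 7 and 8 CPM against 15, 15 and 14 CPM (1.02 ± 0.27).

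Abscisic acid and dehydration genes held 3 of 6 without overlap, all higher, beside 2.99% of all genes tested. These 3 are among the 4 members that the study had chosen for this line. Annexin 4 (Csa04g052610), a calcium-dependent membrane protein, had 8, 9 and 11 CPM in the control and 15, 18 and 27 CPM in *rolD::acdS* roots (1.03 ± 0.22, adjusted p = 0.694). *KIN2* (Csa13g018780), a cold and dehydration gene, had 15, 14 and 11 CPM against 35, 23 and 22 CPM (0.95). *NCED3* (Csa19g021150), which makes the rate-limiting enzyme of abscisic acid synthesis, had 9, 7 and 5 CPM against 6, 8 and 11 CPM, which overlap (0.23).

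The morning clock gene *LHY*, included to follow the time of harvest and picked by the study for another treatment, had lower values in all 3 copies. Csa14g002120 had 71, 58 and 60 CPM in the control and 49, 30 and 27 CPM in *rolD::acdS* roots (-0.87 ± 0.19, adjusted p = 0.694), and without *rolD::acdS* replicate 1 it was called, at -1.13. Csa17g001540 had 77, 61 and 66 CPM against 55, 32 and 28 CPM (-0.87), and Csa03g002180 had 72, 59 and 61 CPM against 47, 28 and 35 CPM (-0.82). No copy overlapped between the groups, and in each the first replicate of both groups was the highest. In *35S::acdS* roots the median of the 3 copies against the control was -0.82, and with the bacterium it was -0.10. How far the time of harvest bears on other genes was not tested.

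The study had also chosen 8 genes of unknown function for this line as sets of copies (homeologs). That their copies went the same way was fixed by that choice, and all 8 were higher without overlap, as a description. The DUF677 gene of *A. thaliana* AT3G28290 had 82, 46 and 31 CPM in the control and 105, 138 and 231 CPM in *rolD::acdS* roots in Csa04g016460 (1.60 ± 0.46). Its copy Csa09179s010 had 2, 1 and 1 CPM against 4, 6 and 9 CPM (1.88 ± 0.31, adjusted p = 0.504). The 3 copies of AT4G16146 had log2 fold changes of 0.93, 1.18 and 1.21, with *rolD::acdS* replicate 3 highest and replicate 1 lowest in each.

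*GH3* enzymes join amino acids to auxin and jasmonate. The copy Csa17g080380 is taken as the one for which the study lists droplet digital PCR oligonucleotides, which are shown here. They were not matched to any sequence, so whether they tell this copy from its homeologs was not tested. They come from the supplementary primer table, where the gene name is 1 digit short of this identifier, and are given 5′ to 3′ in lower case with no part set off. The droplet PCR values were not used.
forward primer: ccggccatcaaaatgtaattcagag
reverse primer: cgttaacaaccacaaccttgtctctc
probe: tgccccgacatcaaccaaagt

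In the sequencing data this gene lay near the lower limit. It was the only 1 of the 5 *GH3* copies tested that the study had chosen for this line. Csa17g080380 had 1, 1 and 0 CPM in the control and 3, 1 and 4 CPM in *rolD::acdS* roots, which touch at 1 CPM (1.46 ± 0.65, adjusted p = 0.724), and the value was 0.94 without control replicate 3. The *35S::acdS* libraries had 8, 5 and 2 CPM. Those treated with *P. migulae* 8R6 had 1, 0 and 0 CPM. Of the 4 other *GH3* copies tested, Csa14g054830 was listed at 0 in the control and at 1, 0 and 1 CPM in *rolD::acdS* roots, and Csa10g003770 at 0 in all 6 libraries. The other two, Csa12g003970 and Csa02149s010, had log2 fold changes of 0.57 and 0.32.

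The comparison with the other transgenic line and with the bacterium used the same *rolD::acdS* libraries. Against *35S::acdS* roots 2 genes were called (0.00416%), Csa11g007100 and Csa20g039340 again, both lower. Against *P. migulae* 8R6-treated roots 4 genes were called (0.00832%). Besides the same pair, Csa00485s040 fell, from 13, 14 and 14 CPM after treatment with the bacterium to 7, 5 and 5 CPM in the transgenic roots (-1.22, adjusted p = 0.0230 with limma). Its control libraries held 8 CPM each. The fourth, Csa12g033440, was listed at 0 in every *P. migulae* 8R6-treated library and at 2 CPM in every *rolD::acdS* library (adjusted p = 0.0347). These counts turned on single libraries. Against *35S::acdS* roots limma called 0 to 10 genes and against *P. migulae* 8R6-treated roots 0 to 51 when 1 library was left out, the 51 without *rolD::acdS* replicate 1.

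The lists can be set side by side for the 3 treatments, which share the control libraries, so likeness among them is not a result. Unlikeness is not one either, since the study picked the members by treatment on these libraries. For *rolD::acdS* it had picked all 5 *JAZ* genes tested, 7 of 8 jasmonate and oxylipin enzymes and 9 of 10 bHLH factors. It had picked 5 of the 10 sugar-starvation genes and 0 of the 8 ion transport genes for that line. For *JAZ* genes the median was 1.22 in *rolD::acdS* roots, 0.16 in *35S::acdS* roots and -0.50 after *P. migulae* 8R6 treatment. In the same order, jasmonate and oxylipin enzymes had 1.42, -0.07 and -0.08, and bHLH factors 1.12, -0.08 and -0.24. Sugar-starvation genes had 1.40, 1.61 and 0.00, higher in both transgenic lines. Ion transport genes had -0.40, -1.36 and -0.56, the first ranging from -0.70 to -0.22 when a *rolD::acdS* library was left out. No p is given for these medians, and the differences between treatments were not tested by list.

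**Figure D5:**
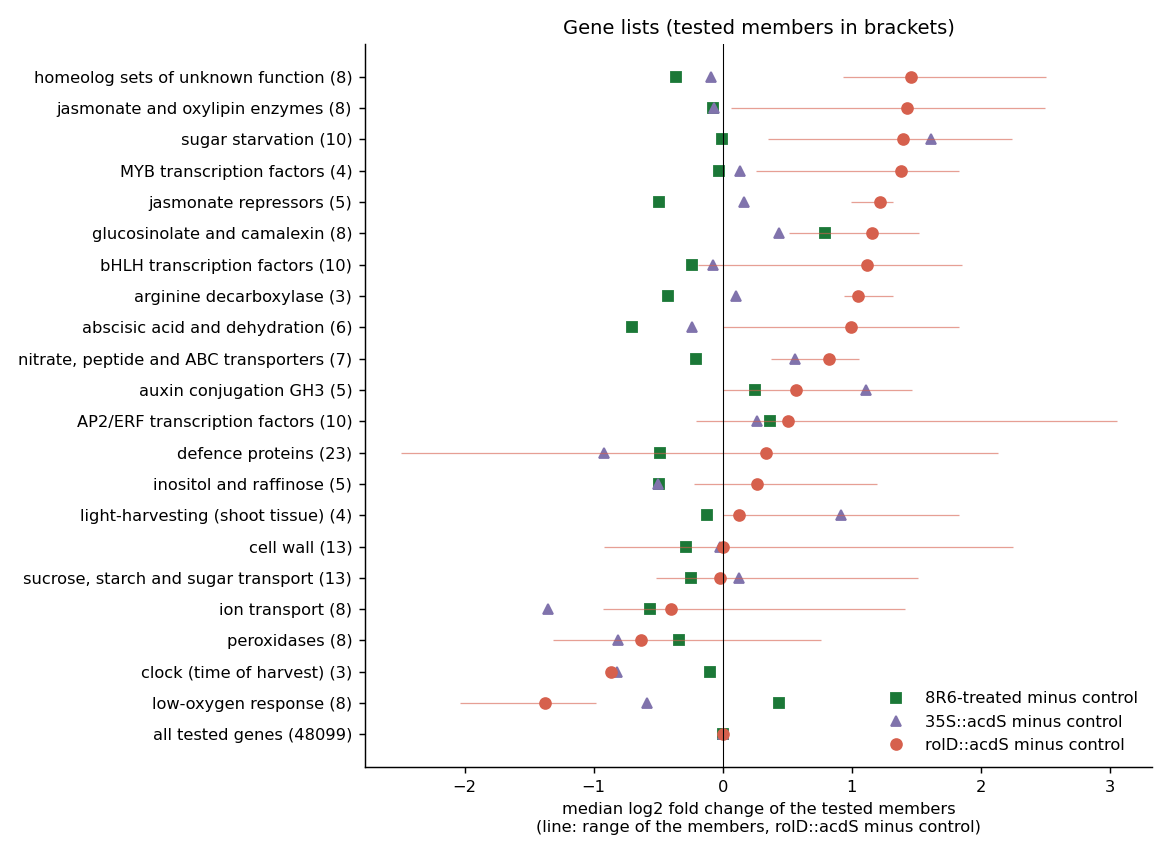
Median log2 fold change of the tested members of each gene list against the control, with 1 marker for each of the 3 treatments and a line for the range of the members in *rolD::acdS* roots. There the jasmonate lists lie at 1.22 and 1.42 and the low-oxygen list at -1.38, and sugar-starvation genes lie at 1.40 in *rolD::acdS* and 1.61 in *35S::acdS* roots. Most members of the jasmonate and low-oxygen lists had been picked by the study for *rolD::acdS* on these libraries.

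The study's full selection for the *rolD::acdS* line holds 146 genes, of which 131 were tested here and the other 15 were not. Of the 131, 88 were higher and 20 lower without overlap, as their choice on these libraries favours. Only 1 of the 131 lies in the chromosome 4 run or beyond it to the end of the chromosome, *MYB2*. Csa04g065150 (*KPHMT1*), among the 15 that were not tested, has an identifier inside the run.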

How the data were processed

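Root RNA of 12 libraries was sequenced. The study names both stranded mRNA and total RNA library kits, so poly(A) selection of each library is not certain. Per their processing notes and methods, the authors used Trimmomatic for trimming and STAR for alignment to release 100 of the camelina genome, counted reads per gene and divided by library size to CPM, with DESeq and edgeR for further normalization and their own tests. Versions are not given in the sources used here. The deposited values are whole numbers that the authors named CPM, so they were read as a score, a CPM rounded to whole numbers, and not as read counts. Read totals could not be recovered, and the depth and its precision are unknown. The authors' fold changes were not used, and neither was a sheet without values.

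The log2(CPM + 0.5) of genes with at least 1 CPM in at least 3 libraries was fitted with limma 3.58.1 in R 4.3.3 (eBayes with a trend), all 12 libraries in 1 fit with 8 residual degrees of freedom, and p-values were adjusted by Benjamini-Hochberg. Genes listed at 0 in every library of a group are given without a fold change. The script was tested on simulated data. Counts and figures used Python 3.11.15, numpy 2.4.6, pandas 2.3.3 and matplotlib 3.10.9. Genes named are those called, the 10 largest differences in each direction without overlap and with a group mean of at least 5 CPM, the 10 smallest p at that level, and members of the lists or of the study's selection. Of genes without annotation, at most 2 in each direction are named besides those called. The members and lists were chosen with earlier results of these data known, and the chromosome 4 run was found after the values were seen. Neighbours were taken from the order of gene identifiers, and no genome was used. Gene names are the *A. thaliana* symbols of the study's supplementary gene table, which names *SKOR* where the study's text has *AKT1* and sulfotransferase 2B where the text has 2A. Alternatives were other pseudocounts, filters, scalings and variance settings, the fit of only the groups compared, a replicate block, no fold limit and leaving out each library. Replicates were treated as independent, and p-values measure the spread between these libraries.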

Additional observations from a re-analysis of the deposited data

How the results depend on the processing

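The count of 2 genes called against the control was 2 with a pseudocount of 0.1, with quantile normalization and with no fold limit. It was 0 with a pseudocount of 1, with a mean of at least 5 CPM, with median-of-ratios size factors and with robust eBayes, 4 without a filter or without a trend, and 21 in a fit of only the 2 groups. Leaving out 1 library gave 0 to 7. Genes at an unadjusted p under 0.05 numbered 3299, and 1596 (without *rolD::acdS* replicate 3) to 6069 (without *rolD::acdS* replicate 1) with 1 library left out. Genes without overlap and with an absolute log2 fold change above 0.8 numbered 262, 143 at a mean of at least 5 CPM, where fewer genes are tested, and 262 to 1193 with 1 library left out. Against *35S::acdS* roots the 2 calls became 0 with a pseudocount of 1, a mean of at least 5 CPM, median-of-ratios size factors or robust eBayes, 8 without a filter or a trend, 39 in a fit of only the 2 groups, and 0 to 10 with 1 library left out. Against *P. migulae* 8R6-treated roots the 4 calls became 15 with a pseudocount of 0.1, no filter or quantile normalization, 0 with a pseudocount of 1, 24 at a mean of at least 5 CPM, 11 with median-of-ratios size factors, 44 in a fit of only the 2 groups, 9 without a trend, 27 with robust eBayes, and 0 to 51 with 1 library left out. The cause of these shifts was not tested.

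Among alternatives chosen after seeing the data, leaving out the chromosome 4 run and its end left 2 genes called against the control and 219 without overlap, and 12 called against *P. migulae* 8R6-treated roots. Leaving out replicate 2 of the control and of the *P. migulae* 8R6-treated roots together gave 0 calls in each of the 3 comparisons. With the replicate number as a block, 0 genes were called against the control (4259 at an unadjusted p under 0.05), 0 against *35S::acdS* and 1 against *P. migulae* 8R6-treated roots. The numbers were not taken to pair the samples, since deviations of same-numbered control and *rolD::acdS* libraries correlated at 0.04, 0.11 and -0.14 across genes, and not every library correlated best with its own number.

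Of 180 named genes with an absolute log2 fold change of at least 0.5, 1 turned in sign. A thionin, Csa08g016070, had -0.58, but 0.14 without control replicate 1 and 0.35 without *rolD::acdS* replicate 2, in a range from -1.81 to 0.35 over left-out libraries. The steps of 1 CPM limit genes at a few CPM.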
